A study of Homo sapiens with 21 samples.

Results

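The genes described here are 10 genes of epithelial tight junctions: the claudins CLDN1, CLDN3, CLDN4, CLDN7, CLDN8, CLDN12, CLDN16 and CLDN23, occludin (OCLN) and the scaffold gene TJP1. They were found by matching these symbols to the Ensembl gene IDs of the count tables, and are 10 of 57500 genes. The RNA came from tumours that HT1376 cells, a human line of bladder carcinoma, formed under the skin of female CB17 SCID mice, which lack functional T and B cells. The 21 libraries form 7 groups of 3: CPI-0209, Valemetostat, MAK683, tazemetostat, PF-06821497, CPI-1205 and vehicle. Each compound was given once a day by mouth at 75 mg/kg, the vehicle group received no compound, and tumours were collected on day 15, 1 hour after a dose. All 7 groups share the same cell line and host strain, with mice aged 6 to 8 weeks at the start and dosing begun 11 to 15 days after inoculation, and the labels do not say that libraries came from separate animals. The p-values therefore measure the spread between these libraries.

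Tight junctions are belts of membrane proteins that close the space between neighbouring epithelial cells. Claudins form the strands of the belt, and the mix of claudins in a cell sets which ions and solutes can pass. Occludin is another strand protein, and TJP1 (ZO-1) ties the strands to the actin cytoskeleton inside the cell. In bladder lining, the urothelium, this seal keeps urine out of the underlying tissue. The 6 compounds inhibit PRC2, the polycomb complex that writes a repressive methyl mark on histones. The series calls all of them EZH2 inhibitors, after the catalytic subunit, whereas MAK683 is known to bind the subunit EED.

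Library totals ran from 9725690 counts, in CPI-0209 library 3, to 25771778, and all 10 urothelial carcinoma markers (keratins, EPCAM, CDH1 and TP63) were detected in every group. Each of the 10 junction genes had counts in all 21 libraries, the lowest being 26 counts of CLDN8 and the highest 45664 counts of CLDN1, and all 10 passed the filter on low counts. Levels below are CPM, counts scaled to a common library size, and levels of different genes are compared as RPKM, which is CPM per kilobase of exon. Changes are edgeR log2 fold changes ± SE, each between 3 libraries of a compound and 3 of vehicle, and a gene is said to have risen or fallen where its adjusted p is under 0.05 over the 21958 genes tested. Of the 10 carcinoma markers 1 rose and 3 fell with CPI-0209, where 22.3% of all genes rose and 18.8% fell. The carcinoma markers summed to 9008 to 10676 CPM with CPI-0209 and 12439 to 13172 CPM in vehicle. Of 10 fibroblast markers 6 rose and 1 fell with CPI-0209, with sums of 1606 to 4270 CPM, against 1051 to 1722 CPM in vehicle. In tumour RNA, fewer cells of a type and less RNA per cell cannot be told apart. The 6 comparisons with vehicle use the same 3 vehicle libraries.

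Most of the junction message came from 3 claudins. Per kilobase, CLDN1 was the most abundant of the 10 genes in every group, at 328 ± 25.9 RPKM with CPI-0209 and 516 ± 48.0 RPKM in vehicle (SD, n = 3 each). CLDN4 stood at 167 ± 18.5 RPKM with CPI-0209 and 99.2 ± 11.4 RPKM in vehicle, and CLDN7 stood at 189 ± 26.2 RPKM with CPI-0209 and 96.7 ± 7.65 RPKM in vehicle. In vehicle, CLDN4 and CLDN7 differed by less than their spread. The other 7 genes lay between 0.693 and 14.4 RPKM in all libraries, with OCLN, TJP1, CLDN23, CLDN3 and CLDN12 above CLDN16 and CLDN8 by group mean in vehicle. CLDN1, CLDN4 and CLDN7 together held 94.5 ± 0.129% of the 10 genes' summed RPKM with CPI-0209 and 94.6 ± 0.184% in vehicle.

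**Figure D1:**
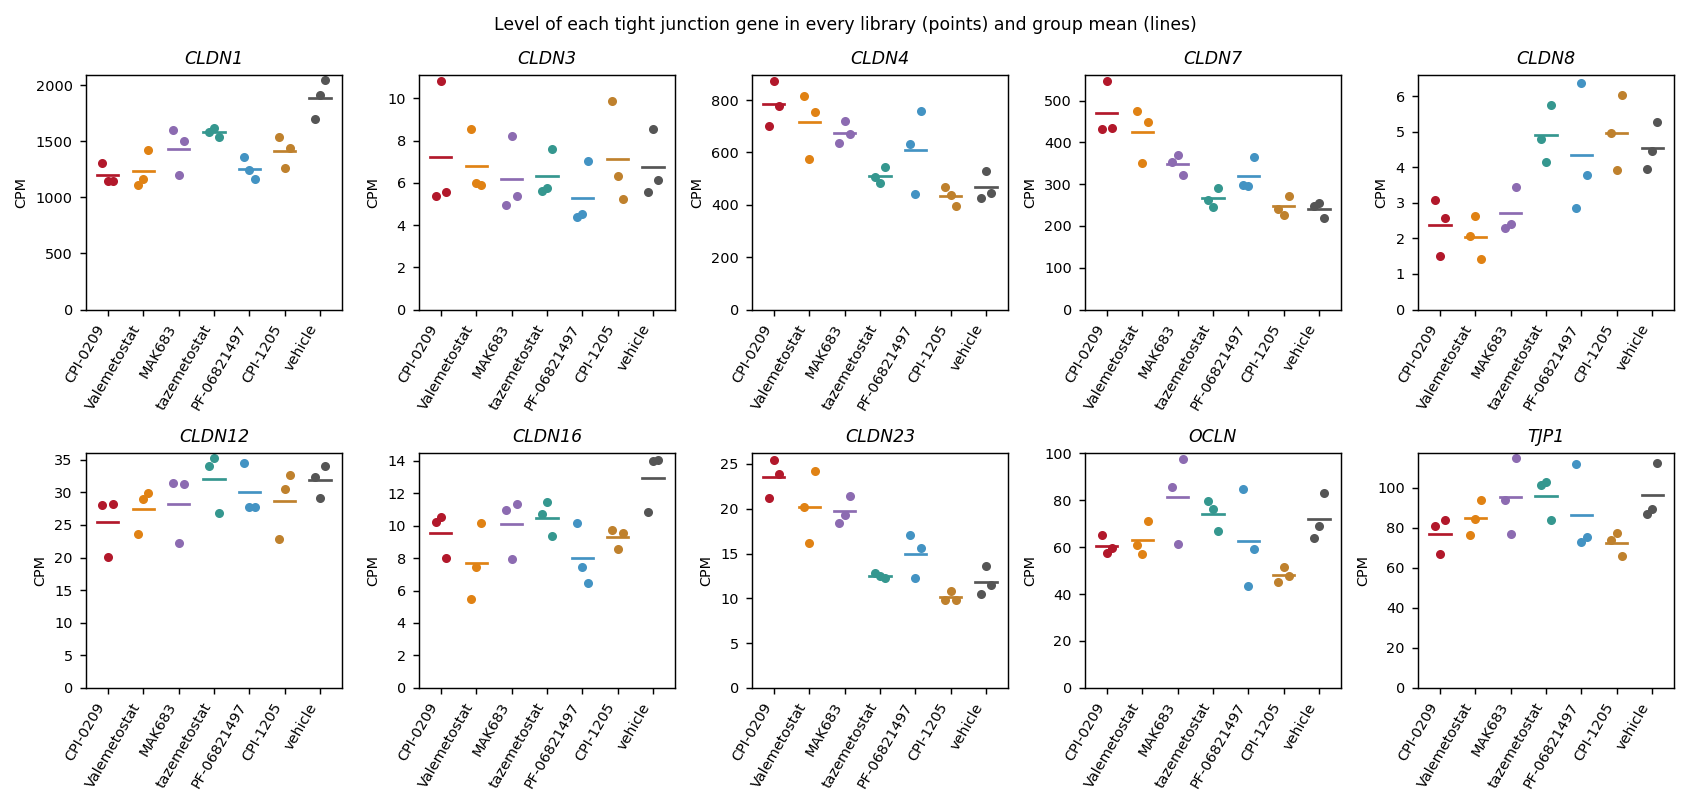
Level of each of the 10 genes in CPM (counts scaled to a common library size, vertical axes, each from 0) in every library (points) with the group mean (lines), for 6 compounds and vehicle along the horizontal axes. CLDN1 lies lower with every compound than in vehicle, while CLDN4, CLDN7 and CLDN23 lie higher with CPI-0209, Valemetostat and MAK683 than in vehicle.

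CLDN1 (chr3:190305701-190322475, minus strand, hg38), a strand-forming claudin that the skin barrier requires, fell with 4 of the 6 compounds. It stood at 1311, 1145 and 1149 CPM with CPI-0209, at 1111, 1163 and 1425 CPM with Valemetostat, and at 1604, 1201 and 1502 CPM with MAK683. Its levels were 1588, 1623 and 1538 CPM with tazemetostat, 1357, 1243 and 1166 CPM with PF-06821497, and 1544, 1259 and 1441 CPM with CPI-1205. Vehicle libraries held 1702, 1916 and 2051 CPM. All 18 libraries of treated tumours lay below all 3 vehicle libraries, so no compound group overlapped vehicle. The log2 change was -0.65 ± 0.13 with CPI-0209 (adjusted p = 0.000381, edgeR), -0.62 ± 0.13 with Valemetostat (0.00116), -0.59 ± 0.13 with PF-06821497 (0.00539) and -0.40 ± 0.13 with MAK683 (0.0411). With CPI-1205 it was -0.42 ± 0.13 (adjusted p = 0.279, edgeR) and with tazemetostat -0.26 ± 0.13 (adjusted p = 1.0), and neither passed. The MAK683 call was lost without MAK683 library 2 or 3 (adjusted p = 0.202 and 0.0779, edgeR) and without vehicle library 2 or 3 (0.106 and 0.170), and under 3 other settings given at the end.

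Some markers of skin keratinocytes fell with the same 4 compounds as CLDN1. Of 10 listed markers 8 were tested, and 0 rose. With CPI-0209 5 of them fell, with Valemetostat 5, with MAK683 3 and with PF-06821497 2. Of all genes 18.8%, 12.2%, 5.17% and 3.59% fell. The summed level of the markers ran from 846 to 927 CPM with CPI-0209, 948 to 1678 with Valemetostat, 1900 to 2930 with MAK683, 3693 to 4994 with tazemetostat, 2033 to 3228 with PF-06821497, 2402 to 4152 with CPI-1205 and 4544 to 5844 in vehicle. Mean CLDN1 and the median marker sum were both highest in vehicle (1890 and 5547 CPM) and both lowest with CPI-0209 (1202 and 893 CPM). The sizes of the differences were unlike: CLDN1 averaged 1255 CPM with PF-06821497 and 1233 CPM with Valemetostat, where the median marker sums were 3218 and 1173 CPM. None of the markers found in the tables was at 0 in a whole group. Squamous carcinoma cells also express such genes, and their part in the CLDN1 result was not tested.

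CLDN4 and CLDN7, the next most abundant claudins, both rose with the same 3 compounds. CLDN4 (chr7:73799542-73832693, plus strand) is a sealing claudin found in the superficial cells of the urothelium. It stood at 700.2, 874 and 778 CPM with CPI-0209, at 817, 575.5 and 755 CPM with Valemetostat and at 636, 721 and 671 CPM with MAK683, against 428, 528 and 444 CPM in vehicle. These 3 groups lay above vehicle without overlap. CLDN4 had 506, 483 and 543 CPM with tazemetostat, 632, 443 and 757 CPM with PF-06821497 and 469, 437 and 397 CPM with CPI-1205. All of these groups overlapped vehicle, and with PF-06821497 the libraries spanned both ranges. The log2 changes were 0.75 ± 0.16 with CPI-0209 (adjusted p = 0.000802, edgeR), 0.62 ± 0.16 with Valemetostat (0.00629) and 0.53 ± 0.16 with MAK683 (0.0258). They were 0.13 ± 0.16 with tazemetostat, 0.39 ± 0.16 with PF-06821497 and -0.10 ± 0.16 with CPI-1205, none of which passed (adjusted p = 1.0, 0.143 and 0.813, edgeR). The MAK683 call did not hold without MAK683 library 2 or 3 (adjusted p = 0.0927 and 0.0561) or without vehicle library 1 or 3 (0.115 and 0.0991), and without PF-06821497 library 2 CLDN4 was called higher with PF-06821497 (0.0184).

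CLDN7 (chr17:7259903-7263983, minus strand) encodes a claudin that also lies along the sides of epithelial cells and binds EPCAM. Its libraries held 432, 546 and 435 CPM with CPI-0209, 475, 350.0 and 448 CPM with Valemetostat and 353, 369 and 322 CPM with MAK683. The other compounds gave 261, 246 and 291 CPM with tazemetostat, 299, 295 and 365 CPM with PF-06821497 and 242, 226 and 272 CPM with CPI-1205, against 248, 256 and 220 CPM in vehicle. CPI-0209, Valemetostat, MAK683 and PF-06821497 lay wholly above vehicle, and tazemetostat and CPI-1205 overlapped it. CLDN7 rose by 0.97 ± 0.13 with CPI-0209 (adjusted p = 7.06e-06, edgeR), by 0.82 ± 0.13 with Valemetostat (8.83e-05) and by 0.53 ± 0.13 with MAK683 (0.00806). With PF-06821497 the change of 0.41 ± 0.13 had adjusted p = 0.0573 (edgeR), and 4 alternative settings put it under the threshold. With tazemetostat and CPI-1205 the changes were 0.14 ± 0.13 and 0.03 ± 0.13 (adjusted p = 1.0 and 0.939, edgeR). Without vehicle library 3 the MAK683 call was lost (0.0573). CLDN7 shares 269 of its 2492 exon bases, on the same strand, with the gene ENSG00000262302, which had 0 counts in all libraries, so reads there are uncertain. It also shares 38 bases with ELP5 on the opposite strand, and ELP5 had log2 changes of 0.19 ± 0.12 with CPI-0209 and 0.18 ± 0.12 with Valemetostat, neither called.

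CLDN23 (chr8:8701938-8704106, plus strand), a claudin best known from intestinal lining, moved like CLDN4 and CLDN7 at a far lower level. Its libraries held 21.2, 25.5 and 23.9 CPM with CPI-0209, 20.2, 16.1 and 24.2 CPM with Valemetostat and 18.4, 19.3 and 21.5 CPM with MAK683. They held 12.8, 12.4 and 12.3 CPM with tazemetostat, 17.1, 12.2 and 15.6 CPM with PF-06821497 and 9.76, 10.9 and 9.85 CPM with CPI-1205, against 10.5, 13.6 and 11.5 CPM in vehicle. The first 3 groups lay wholly above vehicle and the other 3 overlapped it. CLDN23 rose by 0.99 ± 0.15 with CPI-0209 (adjusted p = 2.06e-05, edgeR), by 0.77 ± 0.15 with Valemetostat (0.000537) and by 0.73 ± 0.15 with MAK683 (0.00143). It was the 1 gene of the 10 called higher with MAK683 under each library left out in turn. The changes with tazemetostat, PF-06821497 and CPI-1205 were 0.08 ± 0.15, 0.34 ± 0.15 and -0.22 ± 0.15, and none passed.

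CLDN8 (chr21:30214006-30216073, minus strand), which limits the passage of cations in the distal kidney tubule, fell with CPI-0209 and Valemetostat and stood near 2 to 5 CPM. It had 3.07, 1.49 and 2.58 CPM with CPI-0209, 2.05, 2.62 and 1.43 CPM with Valemetostat and 2.29, 2.40 and 3.44 CPM with MAK683. It had 4.79, 4.15 and 5.74 CPM with tazemetostat, 2.86, 6.36 and 3.78 CPM with PF-06821497 and 4.95, 3.92 and 6.04 CPM with CPI-1205, against 3.94, 4.45 and 5.26 CPM in vehicle. The first 3 groups lay wholly below vehicle, while the other 3 overlapped it, PF-06821497 most widely. The log2 change was -0.94 ± 0.30 with CPI-0209 (adjusted p = 0.0172, edgeR), -1.15 ± 0.30 with Valemetostat (0.00627) and -0.75 ± 0.30 with MAK683 (0.0957), and lay between -0.06 and 0.13 with the other 3. These rest on few reads, 26 to 55 counts a library with CPI-0209. The CPI-0209 call was lost without CPI-0209 library 2 (0.104) or vehicle library 3 (0.0744). With MAK683, CLDN8 was called lower in the fit of 2 groups only and with no filter (adjusted p = 0.0324 and 0.0379, edgeR). Skeletal muscle markers, 11 tested, summed to 295 to 1734 CPM with CPI-0209, highest in library 3, and 437 to 511 CPM in vehicle, and with their median level as a covariate the adjusted p of CLDN8 was 0.0816.

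CLDN16 followed CLDN1. CLDN16, which carries magnesium and calcium between cells of the kidney, had 10.2, 10.5 and 8.03 CPM with CPI-0209, 5.46, 7.45 and 10.1 CPM with Valemetostat and 10.9, 7.97 and 11.3 CPM with MAK683. It had 10.7, 11.4 and 9.36 CPM with tazemetostat, 10.2, 7.48 and 6.45 CPM with PF-06821497 and 9.76, 8.58 and 9.53 CPM with CPI-1205, against 10.8, 14.0 and 14.1 CPM in vehicle. It was lower than vehicle without overlap with CPI-0209, Valemetostat, PF-06821497 and CPI-1205. CLDN16 fell by 0.76 ± 0.20 on the log2 scale with Valemetostat (adjusted p = 0.00822, edgeR) and by 0.69 ± 0.20 with PF-06821497 (0.0340). The 4 other changes lay between -0.48 and -0.30 and did not pass. The PF-06821497 call was lost without PF-06821497 library 2 or 3 (0.0941 and 0.171) or vehicle library 2 or 3 (0.117 and 0.141), and the Valemetostat call without Valemetostat library 1 (0.0612). Per kilobase CLDN16 stood at 0.00816 ± 0.00114 of CLDN1 with CPI-0209, at 0.00629 to 0.00716 of it with the other compounds and at 0.00699 ± 0.000478 of it in vehicle, so that the ratio differed between groups by about the spread between libraries.

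By the outermost starts of the files' annotation, the 2 genes lie head to head. In the files' annotation CLDN1 starts at base 190322475 of chromosome 3 on the minus strand and CLDN16 at base 190322541 on the plus strand, with 65 bases between them. Exons of the pair do not overlap, but the strand setting of the counting is not given in the sources used here. The stretch between these starts is shown because both genes, like TJP1, had group means below vehicle with every compound. It is printed from the GRCh38 reference on the minus strand (chr3:190322476-190322540), in the direction of CLDN1, with matches to the GC box GGGCGG or its reverse complement CCGCCC in capitals.
CLDN1 to CLDN16: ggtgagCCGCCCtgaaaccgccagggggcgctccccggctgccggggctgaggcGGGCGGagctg
Both matches are letters found in the sequence and not known sites. The CLDN1 window in the RefSeq promoter table, 250 bases before to 50 after the start, has 31 CpG dinucleotides, against a median of 14 over 35116 such windows, and a GC box stands in 45.0% of all windows. The RefSeq windows of CLDN16 lie elsewhere, at chr3:190290111-190290410 and chr3:190387913-190388212, and hold 2 and 5 CpG. By these windows CLDN16 does not start beside the printed stretch, so the head-to-head layout rests on the files' annotation alone.

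Occludin, TJP1, CLDN3 and CLDN12 were not called with any compound. OCLN (chr5:69492292-69558104, plus strand) had 65.1, 57.4 and 59.7 CPM with CPI-0209, 60.8, 56.9 and 71.1 CPM with Valemetostat, 85.6, 61.3 and 97.6 CPM with MAK683, and 79.7, 76.4 and 66.8 CPM with tazemetostat. It had 84.8, 43.4 and 59.3 CPM with PF-06821497 and 45.3, 51.4 and 47.7 CPM with CPI-1205, against 64.1, 69.0 and 83.0 CPM in vehicle. CPI-1205 alone among the 6 groups lay wholly below vehicle, with a log2 change of -0.58 ± 0.18 (95% interval -0.98 to -0.18, adjusted p = 0.279, edgeR). TJP1 (chr15:29699367-29968865, minus strand) ran from 66.0 to 77.1 CPM with CPI-1205, from 66.8 to 83.6 CPM with CPI-0209 and from 86.6 to 112 CPM in vehicle, with log2 changes of -0.41 ± 0.16 for CPI-1205 and -0.32 ± 0.16 for CPI-0209. Both groups lay below vehicle without overlap, and the other 4 overlapped it with changes between -0.18 and 0.00. CLDN3 (chr7:73768997-73770270, minus strand), a barrier-forming claudin, ranged from 4.36 to 10.8 CPM over all libraries, and its 95% intervals reached from -0.98 to 0.74, so changes within those bounds were not excluded. CLDN12 (chr7:90383721-90513402, plus strand), a claudin without the usual tail motif that binds scaffolds, ranged from 20.1 to 35.3 CPM, with its lowest change at -0.33 ± 0.17 for CPI-0209. CLDN12 shares 347 of 6741 exon bases with GTPBP10 and 201 with CDK14 on the same strand, and 276 and 371 with PTTG1IP2 and ENSG00000273299, which had 0 counts in all libraries, so reads there are uncertain. With the skeletal muscle covariate OCLN, CLDN12 and TJP1 were called lower with CPI-0209 (adjusted p = 0.0197, 0.0101 and 0.00216, edgeR).

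**Figure D2:**
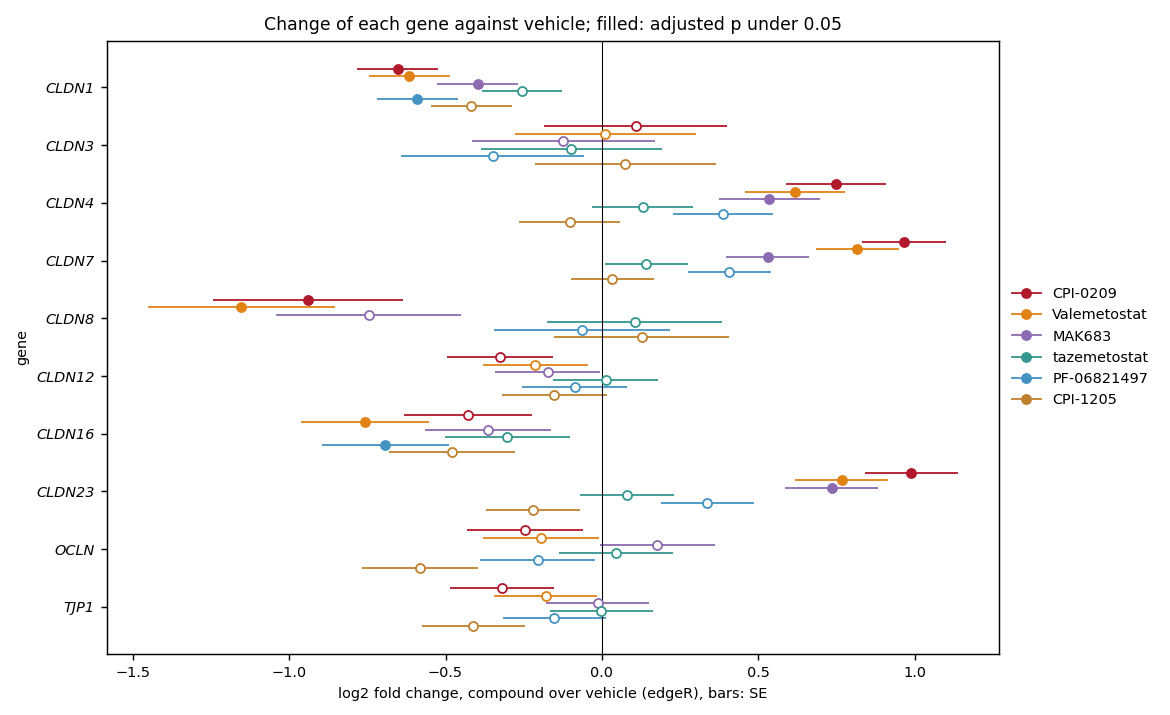
Log2 fold change of each of the 10 genes with each compound over vehicle (horizontal axis, edgeR) with its SE as bars, genes down the vertical axis and compounds in colour. Filled points have an adjusted p under 0.05, and the filled points to the right of 0 belong to CLDN4, CLDN7 and CLDN23, whereas those to the left belong to CLDN1, CLDN8 and CLDN16.

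Counted over the 10 genes, calls went in both directions with CPI-0209, Valemetostat and MAK683, at shares to be read against those of all genes. With CPI-0209 3 rose (CLDN4, CLDN7 and CLDN23) and 2 fell (CLDN1 and CLDN8), where 22.3% of all genes tested rose and 18.8% fell (41.1% in either direction). With Valemetostat the same 3 rose and CLDN1, CLDN8 and CLDN16 fell, against 15.0% and 12.2% of all genes (27.3% in either direction). With MAK683 these 3 rose again and CLDN1 fell, against 10.4% and 5.17% of all genes (15.6% in either direction). PF-06821497 had 0 higher and 2 lower (CLDN1 and CLDN16), where 5.96% of all genes rose and 3.59% fell (9.55% in either direction). DESeq2 called 3 of the 10 with PF-06821497 and limma-voom 2. With tazemetostat and CPI-1205 edgeR called 0 of the 10 and 0.0% of all genes. At an unadjusted p under 0.05, 0 of the 10 passed with tazemetostat, where 2.95% of all genes did, and 4 of the 10 passed with CPI-1205 (CLDN1, CLDN16, OCLN and TJP1), where 12.4% did. DESeq2 called 0 of the 10 with either, giving no adjusted p for 3 of them with CPI-1205, and limma-voom called 0 with either. Groups did not overlap vehicle for 8 of the 10 genes with CPI-0209 (55.0% of all genes), 6 with Valemetostat (47.0%), 5 with MAK683 (36.0%), 1 with tazemetostat (10.9%), 3 with PF-06821497 (27.3%) and 4 with CPI-1205 (20.0%). These counts lie near the background or somewhat above it. The median log2 change of the 10 was -0.28 with CPI-0209 and -0.19 with Valemetostat, where the median of all genes was -0.02 and -0.01.

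Within a library, the balance of the 3 abundant claudins differed between groups. These ratios were chosen after the values were seen and are given without a test, and a ratio shows unequal change only. CLDN1 held 45.4 ± 4.29% of the 10 genes' RPKM with CPI-0209, 48.3 ± 4.63% with Valemetostat, 54.4 ± 4.62% with MAK683, 62.8 ± 1.93% with tazemetostat, 53.9 ± 5.21% with PF-06821497, 63.2 ± 1.68% with CPI-1205 and 68.5 ± 2.33% in vehicle (SD, n = 3 each). The ratio of CLDN7 to CLDN1 was 0.580 ± 0.111 with CPI-0209, 0.511 ± 0.102 with Valemetostat and 0.363 ± 0.0762 with MAK683. It was 0.248 ± 0.0283 with tazemetostat, 0.377 ± 0.0724 with PF-06821497 and 0.257 ± 0.0246 with CPI-1205, against 0.189 ± 0.0289 in vehicle. The lowest library of each compound, 0.223 with tazemetostat at the least, lay above the highest vehicle library at 0.214. The ratio of CLDN7 to CLDN4 moved little, at 1.13 ± 0.0682 with CPI-0209 and 0.980 ± 0.0980 in vehicle.

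**Figure D3:**
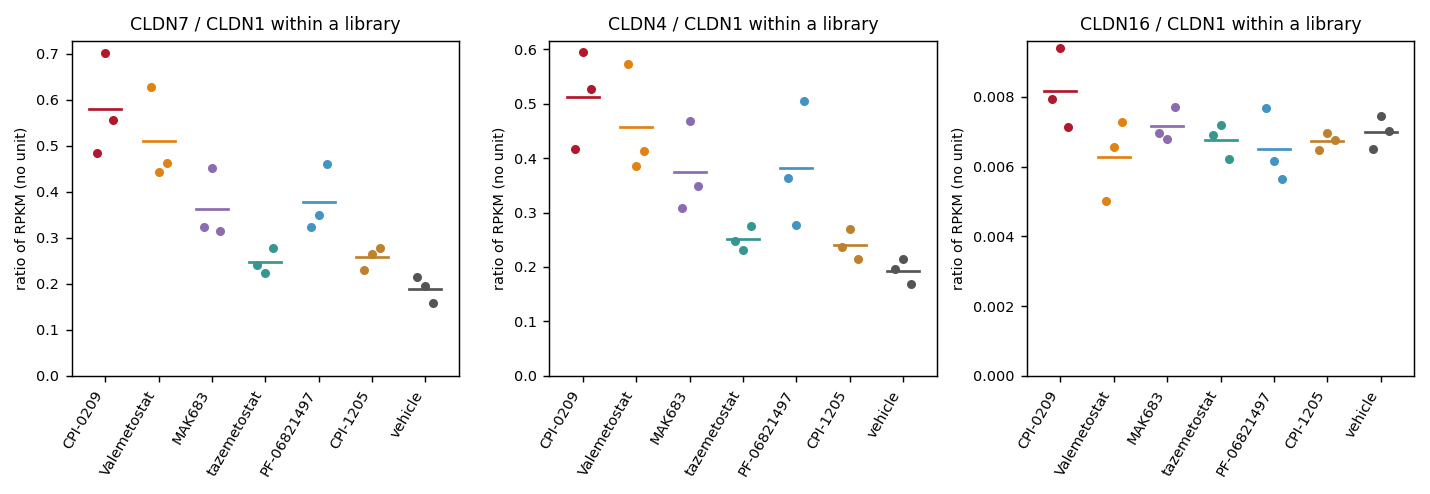
Ratio of RPKM within each library (points, no unit, axes from 0) with the group mean (lines) for CLDN7 over CLDN1, CLDN4 over CLDN1 and CLDN16 over CLDN1, compounds left of vehicle. The first ratio averages 0.580 with CPI-0209 and 0.189 in vehicle, and the third lies between 0.00502 and 0.00939 in all libraries.

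The compounds were also compared with each other, all at the same dose and day. An overall test among the 6 compounds called 32.3% of all genes, and among the 10 it called CLDN7 (adjusted p = 3.61e-05, edgeR), CLDN23 (9.44e-06), CLDN4 (0.00197), CLDN8 (0.00292) and OCLN (0.0360). CLDN1 was not called among the compounds (0.0942), but was in the test over all 7 groups (0.00235), which called 35.8% of all genes and, of the 10, CLDN4, CLDN7, CLDN8, CLDN23 and OCLN besides. Over 15 pairs of compounds, with p adjusted over all genes and pairs together, 27 of 150 differences of the 10 genes were called, where 11.6% of all differences were. CLDN7 and CLDN23 differed in 8 pairs each, CLDN8 in 5, CLDN4 in 4 and OCLN in 2.

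CPI-0209 and Valemetostat differed in 0 of the 10 genes by edgeR, where 3.48% of all genes did. The difference, CPI-0209 over Valemetostat, was 0.15 for CLDN7 (95% interval -0.13 to 0.43), 0.22 for CLDN23 (-0.09 to 0.54) and -0.04 for CLDN1 (-0.31 to 0.24) on the log2 scale. CPI-0209 over MAK683 was 0.44 ± 0.13 for CLDN7 (adjusted p = 0.0347, edgeR), the 1 gene called in that pair, where 5.57% of all genes were higher with CPI-0209. That call did not hold without CPI-0209 library 2 (0.194), without any MAK683 library (0.0521 to 0.124) or without tazemetostat library 2 (0.0521). Valemetostat and MAK683 differed in 0 of the 10, against 1.48% of all genes, with CLDN7 0.29 higher with Valemetostat at an interval of 0.00 to 0.57.

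CPI-0209 stood apart from tazemetostat in 4 genes, where 29.3% of all genes differed. CLDN23 was higher by 0.91 ± 0.15 (adjusted p = 0.000244, edgeR), CLDN7 by 0.82 ± 0.13 (0.000214) and CLDN4 by 0.62 ± 0.16 (0.0132), and CLDN8 was lower at -1.04 ± 0.30 (0.0265). The CLDN4 difference was lost without CPI-0209 library 2 (0.0674) or tazemetostat library 2 (0.0629), and that of CLDN8 without CPI-0209 library 2 or 3 (0.133 and 0.0511) or tazemetostat library 1 or 3 (0.0598 and 0.0838). Valemetostat differed from tazemetostat in CLDN7, CLDN8 and CLDN23 (17.3% of all genes), and MAK683 was higher than it in CLDN23 alone (0.65 ± 0.15, adjusted p = 0.00489, edgeR, where 7.46% of all genes were higher). Against CPI-1205, CPI-0209 differed in 4 genes (28.4% of all genes), with CLDN23 higher by 1.21 ± 0.15 and CLDN7 by 0.93 ± 0.13, and with calls for CLDN4 and CLDN8 too. The CLDN8 call was lost without CPI-0209 library 2 (0.124) or CPI-1205 library 3 (0.102) and with the skeletal muscle covariate (0.165). Valemetostat differed from CPI-1205 in 4 genes (18.5% of all genes), and MAK683 was higher than CPI-1205 in 4 (9.47% of all genes). With MAK683 these included OCLN, higher by 0.76 ± 0.19 (adjusted p = 0.00864, edgeR), which was lost without MAK683 library 3 (0.0502). The MAK683 call for CLDN4 was lost without CPI-1205 library 3 (0.0515), and that for CLDN7 without MAK683 library 2 (0.0704), without CPI-1205 library 2 (0.0782) or with a term for resubmission (0.0764). Libraries 2 and 3 of CPI-1205 and library 1 of PF-06821497 are labelled as resubmitted, and with these 3 omitted, which leaves a single CPI-1205 library, CLDN4 was no longer called in the pairs of CPI-0209, Valemetostat and MAK683 with CPI-1205 (0.0930, 0.164 and 0.258). Without them 10 of the 27 differences were lost and 5 others gained, for 22 in all.

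For CLDN4, CLDN7 and CLDN23, PF-06821497 lay between these compounds. CLDN1 and CLDN16 fell further below vehicle with PF-06821497 (log2 changes of -0.59 and -0.69) than with MAK683 (-0.40 and -0.36). CPI-0209 was higher than PF-06821497 by 0.65 ± 0.15 for CLDN23 and by 0.56 ± 0.13 for CLDN7 (adjusted p = 0.00497 and 0.00694, edgeR), where 12.1% of all genes were higher with CPI-0209. The CLDN7 call was lost without CPI-0209 library 2 (0.0567) or the resubmitted libraries (0.0594). Valemetostat differed from it in CLDN7 and CLDN8 (6.67% of all genes). The CLDN7 call lay close to the threshold (adjusted p = 0.0482, edgeR) and was lost with the replicate block (0.0697), with the resubmission term (0.0753), and without PF-06821497 library 1 or 2 (0.129 and 0.146) or Valemetostat library 1 or 3 (0.211 and 0.128). The CLDN8 call was lost without PF-06821497 library 2 (0.135) or Valemetostat library 1 or 3 (0.0504 and 0.0972). MAK683 differed from it in 0 of the 10 by edgeR (3.55% of all genes), with CLDN7 at 0.12 and an interval of -0.16 to 0.41. Tazemetostat differed from PF-06821497 in 0 of the 10 by edgeR, where 4.83% of all genes differed, and its CLDN1 was 0.33 higher at an interval of 0.06 to 0.61. PF-06821497 over CPI-1205 was called for CLDN23 (0.56 ± 0.15, adjusted p = 0.0165, edgeR, where 4.7% of all genes were higher) and tazemetostat over CPI-1205 for OCLN (0.63 ± 0.18, adjusted p = 0.0294, edgeR, where 0.792% of all genes were higher). The CLDN23 call was lost without PF-06821497 library 1 or 3 (0.0727 and 0.0567) and the OCLN call without 4 of the 6 libraries of that pair (0.0693 to 0.0903).

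Other genes of the junction were counted by list. Of 16 other claudins 8 were tested, and 3 rose with CPI-0209 and with Valemetostat, 2 with MAK683, 1 with PF-06821497 and 0 with tazemetostat and CPI-1205, with 0 lower throughout by edgeR. The share of the 8 called was 37.5% with CPI-0209 and with Valemetostat, 25.0% with MAK683 and 12.5% with PF-06821497. Of all genes 41.1%, 27.3%, 15.6% and 9.55% were called with these 4 compounds. CLDN18, a claudin of stomach and lung, had 17, 16 and 14 counts with CPI-0209, 20, 15 and 14 with Valemetostat and 6, 6 and 7 with MAK683, against 0 in all 3 vehicle libraries. Against a floor of 3 counts over the vehicle group it stood at least 24.0-fold higher with CPI-0209, at least 18.3-fold higher with Valemetostat and at least 7.88-fold higher with MAK683, all called. It was also called with PF-06821497, at 6, 3 and 4 counts. CLDN14 had 3.79, 10.1 and 9.27 CPM with CPI-0209 and 0.951, 0.797 and 0.606 CPM in vehicle, and rose by 3.28 ± 0.39.

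CLDN5, the main claudin of blood vessel lining, had 4.01, 7.64 and 7.84 CPM with CPI-0209 and 0.498, 0.294 and 0.186 CPM in vehicle, and rose by 4.28 ± 0.48 with CPI-0209, 2.59 ± 0.50 with Valemetostat and 2.20 ± 0.51 with MAK683. Endothelial markers moved with it: of 10 listed and 9 tested, 6 rose and 2 fell with CPI-0209, where 22.3% of all genes rose and 18.8% fell. Their summed level was 101 to 128 CPM with CPI-0209, 85.7 to 108 CPM with Valemetostat, 81.4 to 99.2 CPM with MAK683 and 33.1 to 35.2 CPM in vehicle. None was at 0 in a whole group. CDH5, an endothelial cadherin named after its values were seen, went the other way from the 6 that rose. It averaged 0.804 ± 0.224 CPM with CPI-0209 and 1.88 ± 0.705 CPM in vehicle. The part of these markers in the CLDN5 result was not tested. The reads were counted to human genes, and whether mouse reads were removed is not given in the sources used here.

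Among 13 other membrane proteins of the junction, CPI-0209 raised 5 and lowered 2, Valemetostat raised 4, and MAK683 raised 1 and lowered 1. These calls took in 53.8% of the 13 with CPI-0209, 30.8% with Valemetostat and 15.4% with MAK683. Of all genes 41.1%, 27.3% and 15.6% were called in either direction. The median log2 change of the 13 was 0.10 with CPI-0209. CXADR, the coxsackievirus and adenovirus receptor, rose with 4 compounds, standing at 30.8, 28.4 and 31.9 CPM with CPI-0209 and 8.24, 9.53 and 10.9 CPM in vehicle (1.66 ± 0.19). EPCAM, the CLDN7 partner, rose by 0.65 ± 0.14 with CPI-0209 and 0.58 ± 0.14 with Valemetostat. Of 26 scaffold and polarity genes 4 rose and 7 fell with CPI-0209, 3 rose and 5 fell with Valemetostat, 3 rose and 2 fell with MAK683, and 2 rose and 1 fell with PF-06821497. The share of the 26 called in either direction was 42.3% with CPI-0209 and 30.8% with Valemetostat, beside 41.1% and 27.3% of all genes, so these counts lie at the background. MPDZ, a scaffold with many PDZ domains, rose by 3.17 ± 0.42 with CPI-0209, whereas the polarity gene PARD3 fell by 0.64 ± 0.10 and ARHGEF18 fell by 0.84 ± 0.16.

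Of 14 tested transcription factors known for control of epithelial junction genes, 5 rose and 6 fell with CPI-0209, 3 rose and 3 fell with Valemetostat, 3 rose and 2 fell with MAK683, and 2 rose and 1 fell with PF-06821497. These calls took in 78.6% of the 14 with CPI-0209, 42.9% with Valemetostat, 35.7% with MAK683 and 21.4% with PF-06821497. Of all genes 41.1%, 27.3%, 15.6% and 9.55% were called in either direction. Factors known as repressors of junction genes went both ways with CPI-0209. SNAI1 had 5.24, 8.28 and 6.88 CPM with CPI-0209 and 1.31, 1.68 and 1.304 CPM in vehicle (2.24 ± 0.33). Its relative SNAI2 fell by 0.86 ± 0.18 with CPI-0209 and was not called with the other compounds. TWIST1, another factor of mesenchymal change, rose by 3.23 ± 0.23 with CPI-0209. GRHL2, an activator of claudin genes in mouse epithelia, fell by 0.81 ± 0.10 with CPI-0209. Its call with PF-06821497 was lost without each of the 6 libraries of that comparison in turn (adjusted p = 0.0682 to 0.157, edgeR), and its call with MAK683 without MAK683 library 2 or 3 or vehicle library 2 or 3 (0.0514 to 0.0599). OVOL2, which holds epithelial identity, fell by 1.54 ± 0.24 with CPI-0209. ZEB1 and ZEB2 rose by 2.51 ± 0.61 and 2.90 ± 0.79 with CPI-0209, highest in CPI-0209 library 3 at 8.60 and 139 CPM. With the skeletal muscle covariate neither was called (adjusted p = 0.0841 and 0.0945, edgeR). With tazemetostat and CPI-1205 edgeR called 0 genes of these 4 lists, as of all genes.

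**Figure D4:**
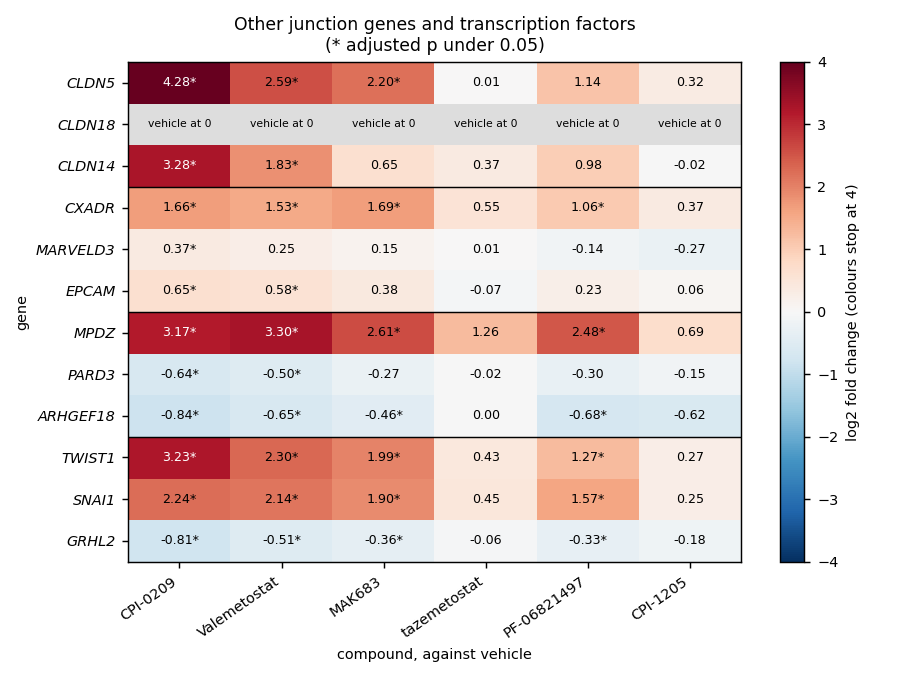
Log2 fold change over vehicle (colour and printed value, edgeR) of the 3 genes of each list with the smallest p over all groups, lists separated by lines, compounds along the horizontal axis. CLDN18 has no value because vehicle had no count of it, asterisks mark an adjusted p under 0.05, and SNAI1 and TWIST1 are higher with CPI-0209, Valemetostat, MAK683 and PF-06821497, while GRHL2 is lower with CPI-0209 and Valemetostat and its calls with MAK683 and PF-06821497 do not hold without single libraries.

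Factors of the SNAI and ZEB families are known to bind the E-box CAGGTG, so the RefSeq windows of the genes were searched for it on both strands, where it stands in 20.6% of all windows. A window was found for 8 of the 10 genes, 14 windows in all, and CLDN8 and CLDN23 had none. The other CLDN7 window had 0 matches. A CLDN7 window at the start of the shorter transcript had 5 matches, the most among the 14 windows. Of 35116 windows 33 (0.094%) had 5 or more. That cut-off was set by the highest count among the 14, so the share is not a test. The upstream matches are shown because CLDN7 rose while SNAI1 rose, in pieces of 30 bases from GRCh38 on the minus strand with the motif or its reverse complement CACCTG in capitals. They lie at chr17:7262635-7262664, chr17:7262596-7262625 and chr17:7262481-7262510, with the motifs 174, 135, 20 and 9 bases before the start.
First CLDN7 match: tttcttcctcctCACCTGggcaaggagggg
Next CLDN7 match: cgacttccggttCAGGTGagtgtcccttcg
Closest CLDN7 matches: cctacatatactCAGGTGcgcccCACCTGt
These are matches of letters, and the data hold no measure of binding. The CLDN1 and CLDN4 windows had 0 matches, CLDN3 had 1 and the OCLN windows had 1 and 2. The grainyhead-like motif AACCGGTT stood in none of the 14 windows and in 0.134% of all.

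Genes beside the 10 were measured as well. Of 26 tested genes within 50 kb of a member, 11 rose and 1 fell with CPI-0209, 6 rose and 1 fell with Valemetostat, and 4 rose and 1 fell with MAK683, with a median log2 change of 0.51, 0.27 and 0.08. Of all genes tested, 22.3% rose and 18.8% fell with CPI-0209, 15.0% and 12.2% with Valemetostat, and 10.4% and 5.17% with MAK683. The medians of all genes were -0.02, -0.01 and -0.01. Near CLDN7, 7 of 13 rose and 0 fell with CPI-0209, among them DLG4, a synaptic scaffold gene (1.98 ± 0.21), and SLC2A4, the insulin-regulated glucose transporter (1.79 ± 0.64). Beside CLDN3 and CLDN4 on chromosome 7, STX1A rose by 0.99 ± 0.16 and ABHD11 by 0.78 ± 0.14 with CPI-0209, where CLDN3 itself had 0.11 ± 0.29.

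Likeness of profile was measured as the root mean square distance of log2 CPM, centred over the 21 libraries, from every other tested gene. For CLDN16 the nearest genes were CLDN1 and MBTPS2, each at a distance of 0.18 where CLDN16's own spread was 0.32. For CLDN7 the nearest were TMPRSS4 and NFKB2 (0.099 and 0.11, own spread 0.37), for CLDN4 ST14 and NECTIN2 (0.13 each, own spread 0.35), and for CLDN23 STAT5A and EPOP (0.15 and 0.16, own spread 0.44). For CLDN1 they were FBXW8 and GRAMD2B (0.084 and 0.10, own spread 0.25). For CLDN8, CLDN3, CLDN12, OCLN and TJP1 the nearest were TLCD5, IFI6, FUBP1, TRIO and SMC1A, at 0.25, 0.17, 0.082, 0.11 and 0.074. Genes of like level and spread share the same libraries and depth, so these distances describe these 21 libraries only.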

How the data were processed

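The authors deposited, for each library, 1 table that lists unnormalized read counts by Ensembl gene ID. According to the submitters' processing notes the tools included RSEM 1.3.1 and STAR 2.7.3a, with hg38 as the build. No source used here gives the program that counted reads, the annotation it used, whether it counted by strand, or whether mouse reads were taken out first. The library kit is labelled TruSeq RNA v2 and elsewhere the libraries are labelled strand specific. Of 57500 genes, GENCODE 29 gave a symbol for 56410 and identical coordinates for 54773.

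Treatment labels set the groups. PF-06821497 titles and count columns are numbered differently, so libraries carry their title's number, and some PF-06821497 and CPI-1205 libraries are marked as resubmitted.

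The software was edgeR 4.0.16, limma 3.58.1 and DESeq2 1.42.0 under R 4.3.3. Low counts were filtered with filterByExpr, which left 21958 genes with 99.6% to 99.9% of each library's counts, and TMM factors were 0.946 to 1.08. All 21 libraries entered a single edgeR quasi-likelihood fit with 1 term for each group (14 residual degrees of freedom, common biological coefficient of variation 0.163). Tests were two-sided, with p adjusted by Benjamini-Hochberg over all genes tested. The SE was taken as the change over the square root of F, and 95% intervals use the t distribution with the residual degrees of freedom. Totals of 9725690 to 25771778 counts left CLDN8, the gene with the fewest reads, at 26 to 148 counts a library, and floors cover counting error only. Profile distances used log2 CPM with a prior count of 2.

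The members and lists were chosen with earlier results of these data known. Named genes were the 10 members, tested genes within 50 kb of them, up to 3 genes per list with the smallest p over all 7 groups, and for each member the 2 genes nearest in profile. SNAI2, OVOL2, ZEB1, ZEB2 and CDH5 were named after their values were seen. The alternatives were other scaling (RLE, upper quartile), other filters (none, 1 CPM in 3 libraries), a block for replicate number, the resubmission mark as a term or its libraries omitted, a covariate of skeletal muscle markers, a test against a 1.5-fold change, fits of only 2 groups, DESeq2, limma-voom and each library left out. Those for pairs of compounds were added after seeing the data. The pipeline was tested on simulated data. Promoter windows are from RefSeq and printed bases from the GRCh38 reference.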

Additional observations from a re-analysis of the deposited data

How the results depend on the processing

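No result changed direction. The counts of the 10 genes stayed within 1.5 times their value under RLE scaling, limma-voom, the resubmission term and omission of the marked libraries, although that omission lost 10 of the 27 differences between pairs of compounds and gained 5 others, and the resubmission term lost 2 and gained 9. The test against a 1.5-fold change left 0 lower with CPI-0209, 0 higher and 0 lower with Valemetostat, 0 and 0 with MAK683, and 0 lower with PF-06821497. Upper-quartile scaling left 0 lower with MAK683. With upper-quartile scaling, the filter of 1 CPM, the skeletal muscle covariate or DESeq2, 1 gene (CLDN7) was higher with PF-06821497. The muscle covariate gave 4 lower with CPI-0209 (CLDN1, CLDN12, OCLN and TJP1), the fit of 2 groups only gave 1 lower with PF-06821497, and the absence of a filter gave 1 lower with CPI-1205 (OCLN). CLDN1 with MAK683 had adjusted p = 0.0645 with upper-quartile scaling, 0.0701 with no filter and 0.0634 in the fit of 2 groups (edgeR). With no filter and in the fit of 2 groups, CLDN8 was called lower with MAK683 instead. Leaving out 1 library at a time gave 1 to 2 lower with CPI-0209, 1 to 3 higher and 0 to 1 lower with MAK683, and 0 to 1 higher and 1 to 2 lower with PF-06821497. The 1 gene higher with MAK683 was CLDN23, without vehicle library 3. The cause was not tested.

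Upper-quartile scaling moved the median change of all genes with CPI-0209 to 0.12, against -0.02 in the main analysis, and its split of all genes to 5858 higher and 2818 lower, against 4888 and 4129. With Valemetostat the split was 3946 and 1924, against 3303 and 2684. Same-numbered libraries did not deviate together for every number in any comparison (correlations -0.20 to 0.22), so the numbers were not taken as pairs. With the replicate block PF-06821497 had 1 gene lower, CLDN16 having adjusted p = 0.0533 (edgeR), the pairs of compounds had 25 differences called against 27, and the counts of the other comparisons with vehicle were unchanged. Depth limits CLDN8 most.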
